A study of Mus musculus with 45 samples.

Results

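The 10 enzymes that make serine and pass its carbon to folate were followed in sequenced mRNA of tumour lines from the mouse mammary gland. They were found by symbol, and all 10 members (Phgdh, Psat1, Psph, Shmt2, Mthfd2, Mthfd1l, Aldh1l2, Shmt1, Mthfd1 and Gldc) had 1 row each among the 28454 genes listed. The data comprise 45 libraries of 11 lines, with 3 cultures of each line and medium. MYAZ16.1e, MYAZ12.3i and MYAZ6.6g came from mammary tumours of MMTV-cMYC mice, in which the MMTV promoter drives the MYC transgene in mammary epithelium, and Myc310 came from a mammary tumour of a mouse of that kind with multiple tumours. LM1, LM2 and LM3 were grown from the lungs of mice given Myc310 cells in the mammary fat pad, and LM1-LM, LM2-LM and LM3-LM belong to the group made in the same way from LM1. MYAZ12.3i-NDI1 carries the name of NDI1, in other work a yeast mitochondrial NADH dehydrogenase, and its labels say no more. All 11 lines share the MYC transgene background, were seeded at 250000 cells per well in medium with serum, insulin, hydrocortisone and EGF, and were sampled in control medium. MYAZ16.1e, Myc310, LM1 and LM1-LM were also sampled after 6 h in medium without cysteine and cystine.

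The series' design text calls the 3 cultures of a line technical replicates, so p-values for deprivation and NDI1 measure the spread between these cultures. In the comparison of subtypes, differences between the lines of a subtype add to that spread. Counts on genes ranged from 19517859 to 29019988 per library (median 22899900), and levels are given as CPM, counts relative to the library total after TMM scaling over the 45 libraries. Among 8 epithelial markers, Krt8, Krt18 and Krt19 were over 1 CPM in every group, whereas Epcam, Cdh1, Cldn3, Cldn4 and Cldn7 were over 1 CPM in no group, so the defining junctional markers of epithelium were near absent. The 6 leukocyte markers listed summed to at most 1.18 CPM in any group, the 5 endothelial markers to at most 6.91 CPM and the 5 alveolar markers to at most 5.80 CPM. The 8 fibroblast markers summed to 1.87 to 219 CPM, with the highest sum in LM3-LM, and the 6 basal markers to 0.141 to 315 CPM, with the highest sum in MYAZ12.3i. In bulk RNA, fewer expressing cells and less RNA per cell cannot be told apart.

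Serine is made from a glycolytic intermediate in 3 steps by Phgdh (the dehydrogenase that opens the pathway), Psat1 (the aminotransferase) and Psph (the phosphatase that releases serine). Serine hydroxymethyltransferases then move a carbon from serine to tetrahydrofolate and leave glycine. Shmt2 does so in mitochondria, where Mthfd2, Mthfd1l and Aldh1l2 oxidise the folate-bound carbon and release it as formate or carbon dioxide, while Shmt1 and the trifunctional Mthfd1 work in the cytosol, where formate carbon is built into purines and thymidylate. Gldc is the decarboxylase of the mitochondrial glycine cleavage system. Serine also lies upstream of cysteine, since the transsulfuration pathway joins it to homocysteine. Several of these genes are known targets of ATF4, the transcription factor of the amino acid response.

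Positions are in GRCm38 from GENCODE M21. Phgdh is at chr3:98313170-98339990 on the minus strand, Psat1 at chr19:15904678-15947337 (minus) and Psph at chr5:129765558-129787449 (minus). Shmt2 is at chr10:127517123-127522444 (minus), Mthfd2 at chr6:83305691-83325908 (minus), Mthfd1l at chr10:3973118-4167081 (plus) and Aldh1l2 at chr10:83487450-83534140 (minus). Shmt1 is at chr11:60788104-60811718 (minus), Mthfd1 at chr12:76255298-76319803 (plus) and Gldc at chr19:30098447-30175429 (minus). Counts cover exons. The library kit keeps strand, but the strand setting of the counting was not given in the sources used here, and where exons of a neighbour overlap on the opposite strand its reads cannot be told apart from the member's without it. Psph shares 452 exonic bases with Cct6a, Aldh1l2 shares 1056 with Nopchap1 and Shmt1 shares 184 with Smcr8, all on the opposite strand.

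RefSeq promoters (GRCm38.p6, 250 bases before to 50 after the start) were matched for 9 of the 10 genes, Aldh1l2 being the exception. The 110 bases before the start are shown for 3 genes whose mRNA rose on deprivation (Phgdh, Shmt2, Mthfd2) and for 1 whose mRNA fell (Mthfd1), 5′ to 3′ in the gene's direction, with CCAAT on either strand in capitals. They are from chr3:98339970-98340079 (minus), chr10:127522445-127522554 (minus), chr6:83317605-83317714 (minus) and chr12:76255122-76255231 (plus). Of these windows, 21 bases at Phgdh and 2 at Mthfd2 fall in exons of an annotated transcript.
Phgdh: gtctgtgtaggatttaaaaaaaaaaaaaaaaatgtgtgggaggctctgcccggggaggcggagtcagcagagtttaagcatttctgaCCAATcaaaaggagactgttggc
Shmt2: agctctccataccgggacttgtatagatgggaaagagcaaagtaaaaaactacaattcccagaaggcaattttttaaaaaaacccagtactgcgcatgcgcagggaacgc
Mthfd2: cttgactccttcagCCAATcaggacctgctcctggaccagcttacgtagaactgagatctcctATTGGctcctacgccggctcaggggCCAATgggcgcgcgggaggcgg
Mthfd1: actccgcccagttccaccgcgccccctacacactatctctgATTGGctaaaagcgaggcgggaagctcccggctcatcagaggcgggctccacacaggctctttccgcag

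CCAAT occurred on either strand in the 300-base promoters of 7 of the 9 genes matched (Phgdh, Psat1, Psph, Mthfd2, Shmt1, Mthfd1 and Gldc), and in 37.4% of all 32851 promoters. The letters TGATGNAA, the composite element of the amino acid response, occurred in 0 of the 9 and in 3.97% of all promoters. TGACGT, a core of CRE sites, occurred in Psph and Mthfd1l and in 7.51% of all promoters, and CACGTG, the E-box that MYC binds, in 0 of the 9 and in 7.15% of all. CCAAT was found in genes that rose and in genes that fell. All of these letters other than TGATGNAA were searched after the responses were known. These are matches of letters in a short window and nothing more.

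Deprivation of cysteine and cystine for 6 h moved Shmt2, Mthfd2, Mthfd1l and Aldh1l2 in the opposite direction to Shmt1 and Mthfd1. In each of the 4 lines, all 3 serine synthesis genes and all 4 genes of the mitochondrial folate arm rose, both cytosolic genes fell, and Gldc passed no threshold (edgeR quasi-likelihood test, adjusted p below 0.05 over 13400 genes). Of all genes tested, 26.6% rose and 27.1% fell in MYAZ16.1e, 32.8% rose and 33.9% fell in Myc310, 35.8% rose and 35.3% fell in LM1, and 36.5% rose and 35.9% fell in LM1-LM, so calls in either direction were common among all genes. Over the 4 mitochondrial genes the median log2 fold change was lowest in MYAZ16.1e, at 1.49, and reached 1.84 with Myc310, 1.98 with LM1-LM and 2.05 with LM1, while the median of all genes tested lay between -0.01 and 0.00.

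**Figure D1:**
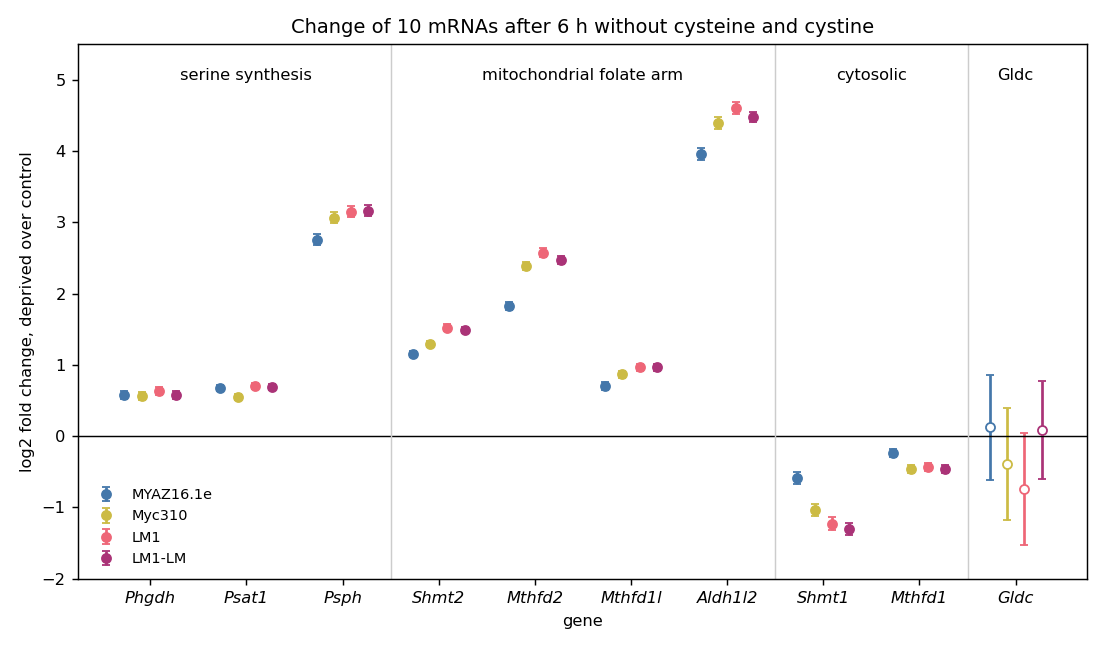
Log2 fold change of each gene (x axis) after 6 h without cysteine and cystine against control medium (y axis) in 4 lines, with 95% intervals (1.96 standard errors). Filled points passed an adjusted p of 0.05 in edgeR and open points did not. The serine synthesis and mitochondrial genes lie above 0, Shmt1 and Mthfd1 lie below 0, and the intervals of Gldc span 0.

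Aldh1l2, the mitochondrial enzyme that oxidises formyl-tetrahydrofolate to carbon dioxide, changed most among the 10. In MYAZ16.1e it was at 15.6, 15.1 and 18.3 CPM in control cultures and at 261, 249 and 257 CPM in deprived cultures. In Myc310 the levels were 15.4, 16.4 and 14.8 CPM in control and 328, 320 and 328 CPM in deprived cultures. Both lines thus started from a near equal level, but the deprived cultures of Myc310 were all above those of MYAZ16.1e. In LM1 the control cultures were at 20.6, 22.0 and 20.9 CPM and the deprived ones at 526, 506 and 514 CPM. In LM1-LM they were at 22.4, 23.2 and 24.3 CPM and at 520, 516 and 519 CPM. Control and deprived cultures did not overlap in any line, and the fold was lowest for MYAZ16.1e, at 15.5, and was 20.9 for Myc310, 22.3 for LM1-LM and 24.3 for LM1 (log2 fold change 3.95 ± 0.04, 4.39 ± 0.04, 4.48 ± 0.04 and 4.60 ± 0.04, ± SE, with adjusted p of at most 1.09e-33 in edgeR). It ranked 48 to 79 from the top among the 13400 genes tested. Nopchap1, which overlaps it on the opposite strand with a total count of 81.4% of that of Aldh1l2, fell in the 4 lines (log2 fold change -0.34 to -0.54).

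Psph was the serine synthesis gene that changed most. Control cultures of MYAZ16.1e lay at 18.8 to 21.3 CPM, those of Myc310 at 23.2 to 23.9 CPM, those of LM1 at 24.5 to 26.1 CPM and those of LM1-LM at 25.1 to 26.1 CPM. Deprived cultures were at 135, 144 and 135 CPM in MYAZ16.1e and at 199, 197 and 194 CPM in Myc310. In LM1 they were at 224, 227 and 224 CPM, and in LM1-LM at 240, 227 and 219 CPM. The deprived cultures of MYAZ16.1e were therefore below every deprived culture of the other lines, whereas LM1 and LM1-LM overlapped each other. The fold was 6.76 in MYAZ16.1e, and 8.36, 8.86 and 8.96 in the other lines, Myc310 first and LM1-LM last (adjusted p at most 8.07e-30, edgeR). Cct6a, which overlaps it on the opposite strand and had 512508 counts in all against 72006 for Psph, fell in the same lines (log2 fold change -0.29 to -0.40).

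Phgdh and Psat1 rose far less and from much higher levels. In MYAZ16.1e, Phgdh was at 589 ± 10.6 CPM in control and 879 ± 11.5 CPM in deprived cultures (mean ± SD, n = 3), in Myc310 at 613 ± 20.5 and 903 ± 45.3 CPM, in LM1 at 627 ± 6.46 and 976 ± 37.2 CPM, and in LM1-LM at 679 ± 13.3 and 1012 ± 14.4 CPM. The fold was 1.47 to 1.56 in the 4 lines. Psat1 was at 415 ± 12.8 and 661 ± 2.94 CPM in MYAZ16.1e, while Myc310 had 571 ± 6.99 and 835 ± 9.12 CPM, LM1 had 609 ± 7.16 and 991 ± 17.5 CPM and LM1-LM had 624 ± 4.68 and 1010 ± 14.9 CPM, a fold of 1.46 to 1.63. No control culture overlapped a deprived one for either gene. Per kilobase of exon, Phgdh stood at 237 CPM in control cultures of MYAZ16.1e, Psat1 at 97.5 and Psph at 4.70, and in deprived cultures at 353, 155 and 31.9, so Psph remained the lowest of the 3 serine synthesis mRNAs.

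Mthfd2, the mitochondrial dehydrogenase and cyclohydrolase, followed Aldh1l2 and Psph in size. Control cultures of MYAZ16.1e were at 112, 114 and 106 CPM and deprived cultures at 385, 395 and 393 CPM. In Myc310 the levels were 123, 118 and 120 CPM in control and 628, 630 and 627 CPM in deprived cultures. Among deprived cultures Myc310 was the highest, above LM1 (569, 560 and 584 CPM) and LM1-LM (581, 551 and 564 CPM). The control cultures of LM1 (98.7, 96.2 and 92.9 CPM) and LM1-LM (97.6, 103 and 105 CPM) were below all of those of MYAZ16.1e. The fold was lowest in MYAZ16.1e, at 3.54, followed by Myc310 at 5.23, LM1-LM at 5.54 and LM1 at 5.95 (adjusted p at most 7.05e-29, edgeR).

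Shmt2, which feeds serine carbon into the mitochondrial arm, rose from 280, 283 and 280 CPM to 627, 623 and 626 CPM in MYAZ16.1e. In Myc310 it went from 361, 365 and 357 CPM to 870, 865 and 911 CPM. In LM1 the control cultures were at 356, 351 and 353 CPM and the deprived ones at 1001, 1005 and 1045 CPM. Those of LM1-LM were at 367, 372 and 382 CPM and at 1056, 1037 and 1060 CPM, so MYAZ16.1e was lowest in both media. The fold was 2.23, 2.45, 2.88 and 2.81 in the order MYAZ16.1e, Myc310, LM1 and LM1-LM (adjusted p at most 1.02e-26, edgeR). Mthfd1l, the mitochondrial formyl-tetrahydrofolate synthetase that releases formate, changed least in the arm. Its mean was 131 ± 0.948 CPM in control and 214 ± 4.08 CPM in deprived MYAZ16.1e, and 175 ± 3.24 and 320 ± 2.13 CPM for Myc310 (± SD, n = 3), and its fold was 1.63, 1.83, 1.96 and 1.95 in the same order of lines.

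Shmt1, the cytosolic counterpart of Shmt2, fell. In MYAZ16.1e it went from 94.7, 92.8 and 88.5 CPM to 61.5, 62.0 and 59.9 CPM. In Myc310 it went from 103, 101 and 99.2 CPM to 48.2, 50.9 and 49.0 CPM. The control cultures of these lines lay within 88.5 to 103 CPM, as did those of LM1 (97.4, 88.5 and 92.6 CPM) and LM1-LM (91.5, 91.9 and 91.0 CPM), whereas the deprived ones of LM1 were at 38.5, 41.9 and 38.5 CPM and those of LM1-LM at 35.0, 40.4 and 36.3 CPM. The level fell to 0.665 of control in MYAZ16.1e, and to 0.487, 0.427 and 0.406 of control in the other lines, Myc310 first and LM1-LM last (adjusted p at most 7.08e-13, edgeR). Smcr8, which overlaps it, rose in the 4 lines (log2 fold change 0.10 to 0.75), and its part in the counts of Shmt1 was not tested. Mthfd1, which interconverts formate and the folate-bound carbon in the cytosol, fell less. MYAZ16.1e had 228 ± 5.98 CPM in control and 193 ± 6.40 CPM in deprived cultures, Myc310 had 313 ± 5.21 and 227 ± 7.02 CPM, LM1 had 310 ± 3.25 and 230 ± 4.28 CPM, and LM1-LM had 309 ± 4.94 and 225 ± 6.35 CPM (± SD, n = 3). The fold was 0.847, 0.724, 0.740 and 0.727, and after deprivation the 4 lines were closer together than before it.

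**Figure D2:**
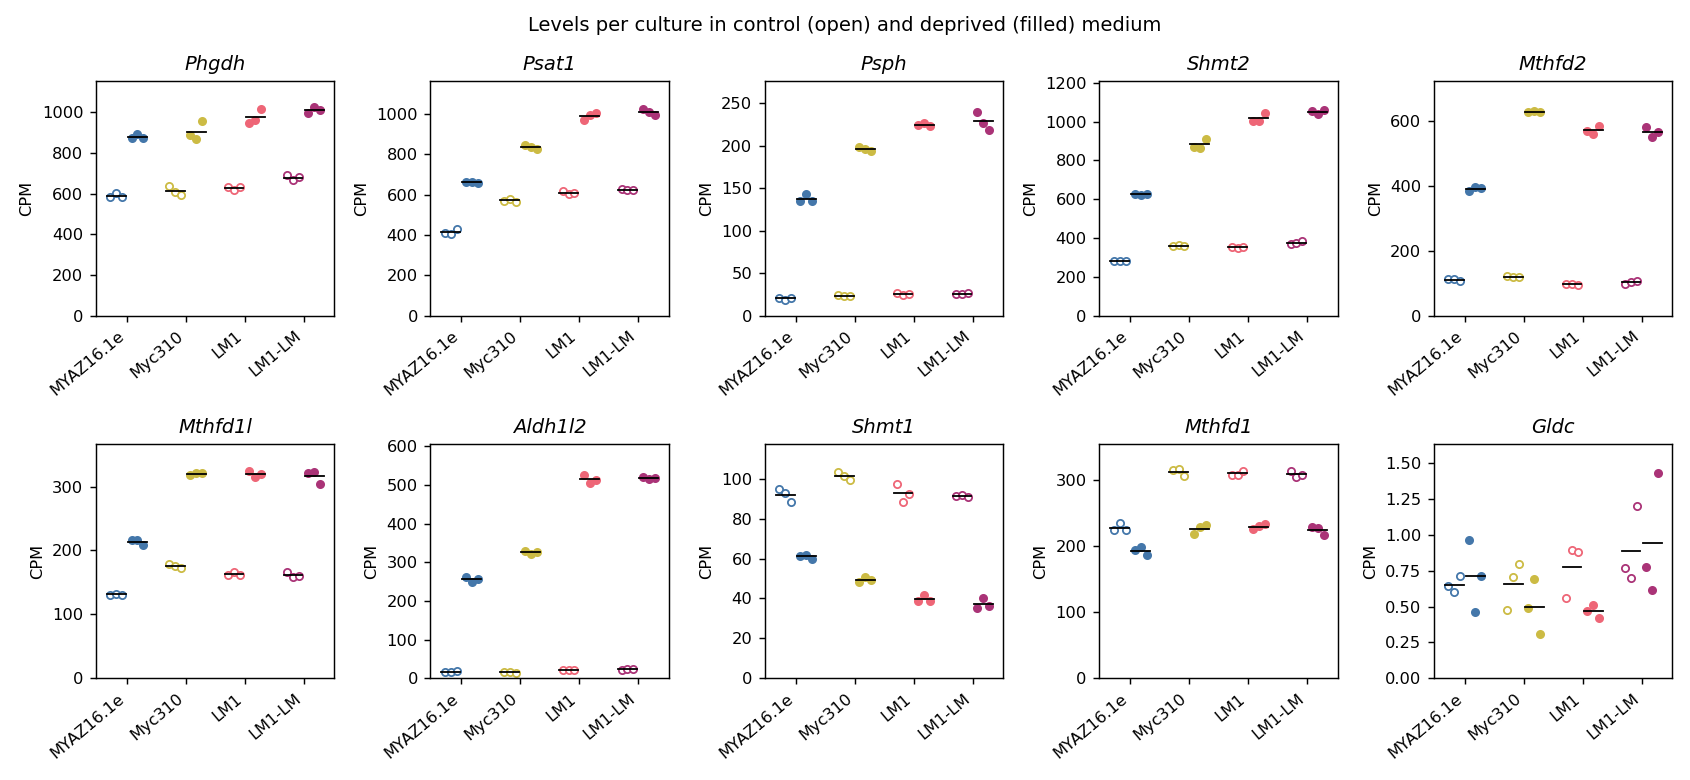
CPM (y axis, each panel from 0) of the 10 genes per culture in 4 lines, with control cultures open, deprived cultures filled and bars at the mean of 3 cultures. Control and deprived cultures are apart in every line for 9 genes, and those of Gldc, between 0.307 and 1.43 CPM, overlap in all lines but LM1. How many of all genes are apart in this way was not counted.

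Gldc had 7 to 30 counts per library in these 24 libraries, or 0.307 to 1.43 CPM. Its log2 fold change was 0.12 ± 0.38 for MYAZ16.1e, -0.39 ± 0.40 for Myc310, -0.74 ± 0.40 for LM1 and 0.09 ± 0.35 for LM1-LM (± SE), with adjusted p of 0.816, 0.398, 0.101 and 0.84 in edgeR. Changes within its intervals (for LM1, -1.53 to 0.05) were not excluded, and the cultures overlapped in all lines but LM1.

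The opposite movement of the paired enzymes was read as a ratio of counts within each library, which does not depend on the scaling between libraries. Shmt2 reads per Shmt1 read went from 2.96, 3.05 and 3.17 to 10.2, 10.1 and 10.5 in MYAZ16.1e. The ratio went from 3.49, 3.60 and 3.59 to 18.1, 17.0 and 18.6 in Myc310. In LM1 it went from 3.65, 3.96 and 3.82 to 26.0, 24.0 and 27.2, and in LM1-LM from 4.02, 4.04 and 4.20 to 30.2, 25.7 and 29.2. Deprived cultures of MYAZ16.1e were below those of Myc310 and these below those of both lung lines, which overlapped each other. Mthfd1l reads per Mthfd1 read were 0.575 ± 0.0111 in control and 1.11 ± 0.0177 in deprived MYAZ16.1e, 0.560 ± 0.00508 and 1.41 ± 0.0350 for Myc310, 0.527 ± 0.0104 and 1.39 ± 0.0406 for LM1, and 0.523 ± 0.00650 and 1.41 ± 0.0129 for LM1-LM (± SD, n = 3). The ratio of this pair was below 1 in control and above 1 in deprived cultures of all 4 lines, and the deprived cultures of Myc310 overlapped those of LM1 and LM1-LM, whereas its control cultures lay above theirs.

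**Figure D3:**
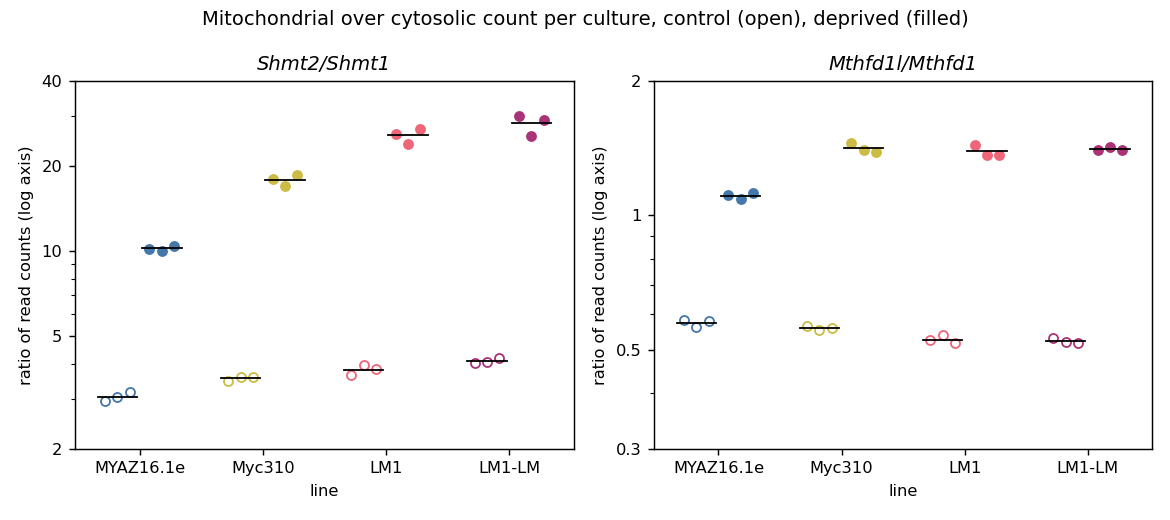
Reads of the mitochondrial gene over reads of its cytosolic counterpart per culture (y axis, log scale) in control (open) and deprived (filled) medium for 4 lines, with bars at the mean. Shmt2/Shmt1 reached 10.2 in MYAZ16.1e and 28.3 in LM1-LM (means), and Mthfd1l/Mthfd1 crossed 1 in all 4 lines.

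Whether the lines responded to a different degree was tested as the difference between the response of a line and that of MYAZ16.1e. Psph, Shmt2, Mthfd2, Mthfd1l and Aldh1l2 rose more, and Shmt1 and Mthfd1 fell more, in Myc310, LM1 and LM1-LM than in MYAZ16.1e, each past the threshold in edgeR. Among all genes, 19.8%, 26.9% and 28.4% had a higher response than in MYAZ16.1e and 20.4%, 25.3% and 26.4% a lower one, for Myc310, LM1 and LM1-LM. Mthfd2 differed most among the genes that rose, by 0.56 ± 0.04 with Myc310, 0.75 ± 0.04 with LM1 and 0.65 ± 0.04 with LM1-LM on the log2 scale (± SE), and Shmt1 differed by -0.45 ± 0.06, -0.64 ± 0.06 and -0.71 ± 0.06. Phgdh did not pass, with a difference of -0.02 in Myc310 (95% interval -0.10 to 0.07), 0.06 in LM1 (-0.02 to 0.14) and 0.00 in LM1-LM (-0.09 to 0.08), so differences beyond about 0.14 lay outside these intervals. Psat1 rose less in Myc310 than in MYAZ16.1e (-0.12 ± 0.03, adjusted p = 0.00191) and did not pass in LM1 (0.03, -0.03 to 0.09) or LM1-LM (0.02, -0.04 to 0.08). Gldc did not pass in any line, with adjusted p from 0.199 to 0.976. The 3 comparisons share the cultures of MYAZ16.1e, which is the only line of its subtype that was deprived, so line and subtype cannot be told apart here.

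Other genes of the pathway were counted from lists. Of all genes tested, 26.6% to 36.5% rose and 27.1% to 35.9% fell in the 4 lines. All 6 purine synthesis enzymes listed fell in all 4 lines, with a median log2 fold change of -0.34 for MYAZ16.1e and of -0.61, -0.81 and -0.84 for Myc310, LM1 and LM1-LM. Ppat, the committing amidotransferase, fell by 0.57, 1.27, 1.55 and 1.63, and Pfas by 0.38, 1.05, 1.34 and 1.47 on that scale. Of 14 other folate enzymes and carriers tested, 3 rose in every line and 6 fell in MYAZ16.1e and 8 in each other line. Among them Mtr and Mtrr, methionine synthase and its reductase, rose by a log2 fold change of 0.21 to 0.47. The polyglutamylase Fpgs fell by 0.24 to 1.39, the folate carrier Slc19a1 by 0.11 to 1.08, and Slc25a32, the mitochondrial folate carrier, by 0.24 to 0.83. Mthfd2l, the paralogue of Mthfd2, fell by 0.36 to 0.57 while Mthfd2 rose.

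Of 8 genes of serine supply and breakdown tested, 4 rose and 3 fell in MYAZ16.1e, Myc310 and LM1, and 3 rose and 3 fell in LM1-LM. Slc1a4, a neutral amino acid transporter that carries serine, rose 3.87-fold with MYAZ16.1e, 4.05-fold with Myc310, 5.41-fold with LM1 and 5.56-fold with LM1-LM. Sfxn1, which carries serine into mitochondria, fell in the 4 lines (fold 0.803, 0.661, 0.592 and 0.610), opposite to Shmt2, which acts on that serine. The glycine cleavage partners did not move as a group. Dld, a dehydrogenase that also serves other mitochondrial complexes, rose 1.52- to 2.45-fold, Gcsh fell to 0.559 to 0.773 of control, and Amt passed in no line. Among reference genes of the amino acid response, Atf4 rose 3.14-fold with MYAZ16.1e, 4.46-fold with Myc310, 5.72-fold with LM1 and 6.09-fold with LM1-LM, and Asns 4.50- to 6.04-fold.

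In control medium the spread between the 11 lines differed by gene. The highest line mean was 1.29 times the lowest for Phgdh (679 CPM in LM1-LM and 525 CPM in MYAZ6.6g) and 1.45 to 1.75 times for Psat1, Psph, Shmt2, Mthfd2, Mthfd1l and Mthfd1. It was 1.96 times for Shmt1 (108 CPM in LM2-LM and 55.3 CPM in MYAZ6.6g), 2.95 times for Aldh1l2 (45.8 CPM in MYAZ12.3i and 15.5 CPM in Myc310) and 6.66 times for Gldc (4.18 CPM in LM3 and 0.627 CPM in MYAZ6.6g). Along the order of the 11 line means, 8 of 10 neighbouring pairs overlapped in their cultures for Phgdh, Psph, Mthfd2 and Gldc, and 3 to 7 for the others. For Shmt2 the order ran LM2-LM, LM1-LM, LM3, Myc310, LM2, LM1, LM3-LM, MYAZ12.3i-NDI1, MYAZ12.3i, MYAZ16.1e and MYAZ6.6g (408 to 272 CPM). Among neighbours, LM3 overlapped Myc310, LM2 overlapped LM1 and MYAZ12.3i-NDI1 overlapped MYAZ12.3i. Further along the order, LM3 also overlapped LM2 and LM1.

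**Figure D4:**
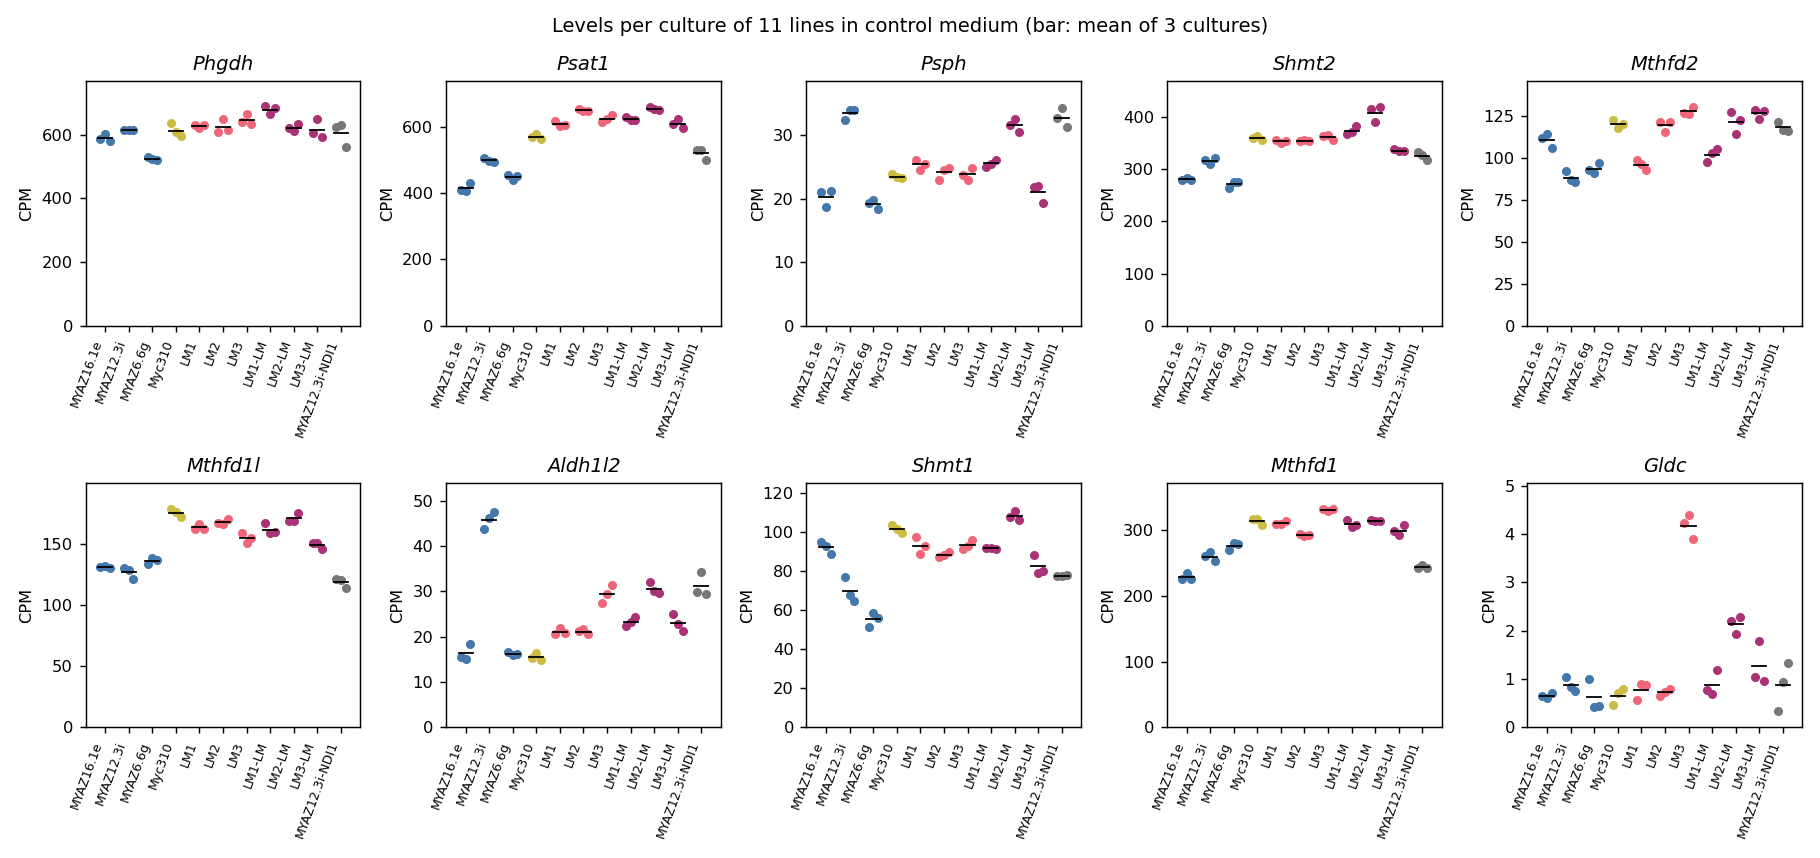
CPM (y axis, each panel from 0) of the 10 genes per culture in 11 lines in control medium, with bars at the mean of 3 cultures and colours by subtype (MYAZ blue, Myc310 yellow, LM red, LM-LM purple, NDI1 grey). Psat1 is at 415 to 499 CPM in the MYAZ lines and 571 to 654 CPM in Myc310, LM and LM-LM lines, and Gldc stands at 4.18 CPM in LM3.

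Subtypes were compared with MYAZ over 30 control libraries and 13795 genes. In edgeR, 6 of the 10 genes were higher and 1 lower in Myc310, and 8 were higher and 0 lower in LM and in LM-LM. Of all genes, 23.8% were higher and 27.1% lower in Myc310, 30.3% and 30.5% in LM, and 30.5% and 32.3% in LM-LM. Psat1 was higher by a log2 fold change of 0.32, 0.46 and 0.46 (for Myc310, LM and LM-LM), Shmt2 by 0.30, 0.29 and 0.36, Mthfd1l by 0.41, 0.30 and 0.28 and Mthfd1 by 0.29, 0.28 and 0.26 (SE 0.04 to 0.06). Shmt1 and Mthfd1, which fell on deprivation, were higher in all 3 subtypes in this fit, as were Shmt2, Mthfd2 and Mthfd1l but not Aldh1l2. This fit counts 3 cultures of a line as 3 samples. With counts summed per line, 4 genes remained called in LM and in LM-LM (Psat1, Shmt2, Mthfd1l and Mthfd1, with adjusted p of 0.00367 to 0.0351 in LM and 0.00322 to 0.0346 in LM-LM), against 3788 and 4226 of 16017 genes. Myc310 is then 1 sample, assumed to vary like the other subtypes, and Mthfd1l was called in it (adjusted p = 0.036), as were 1429 of all genes. For these 4 genes and for Phgdh the 3 line means of LM, and those of LM-LM, lay above the 3 of MYAZ. Each gave p = 0.1 in a two-sided exact permutation test, the smallest that 3 lines against 3 allow. Line means of Gldc lay above those of MYAZ in LM-LM (0.887 to 2.14 CPM against 0.627 to 0.875 CPM) and overlapped them in LM. The share of all genes with line means apart in this way was not counted. The LM lines all derive from Myc310 and the LM-LM lines from LM1, so these lines share 1 tumour of origin, while the tests per line treat them as independent.

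Psat1 line means were 415, 449 and 499 CPM in MYAZ, 609, 625 and 650 CPM in LM, and 610, 624 and 654 CPM in LM-LM, with Myc310 between at 571 CPM. Shmt2 was at 272, 281 and 317 CPM in MYAZ, 353, 355 and 362 CPM in LM and 336, 374 and 408 CPM in LM-LM. Mthfd1l was at 127, 131 and 136 CPM in MYAZ, 155, 163 and 168 CPM in LM and 149, 162 and 171 CPM in LM-LM. The lines of the subtypes did not overlap with MYAZ in any of these genes, and the share of all genes for which this holds was not counted. Marker lists were compared between the 3 MYAZ lines and the 7 Myc310, LM and LM-LM lines in control medium. The 6 basal markers summed to 7.44 to 315 CPM in MYAZ lines, mostly Acta2 (5.92, 247 and 312 CPM), and to 0.141 to 1.82 CPM in the 7 others. The 8 epithelial markers summed to 343 to 1137 CPM and to 1016 to 2379 CPM. Of the 3 detected, Krt8 was higher in all 7 lines, at 823 to 1719 CPM against 220 to 788 CPM, whereas Krt18 and Krt19 overlapped. The 8 fibroblast markers summed to 9.05 to 95.9 CPM and to 1.87 to 219 CPM, and went different ways. Col1a1 was lower in all 7 lines (at most 0.480 CPM against at least 0.980 CPM), Pdgfra and Pdgfrb overlapped, and Col3a1 was at most 10.1 CPM in MYAZ lines, 0.471 CPM in Myc310 and 12.8 to 201 CPM in LM and LM-LM lines. The endothelial markers summed to 4.22 to 6.91 CPM in MYAZ lines and to 0.254 to 0.922 CPM in the 7 others. The leukocyte markers summed to 0.204 to 0.389 CPM and to 0.688 to 1.18 CPM. The sums of the alveolar markers overlapped, at 2.08 to 4.84 CPM and 0.479 to 5.80 CPM. The part of all these markers in the differences was not tested.

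Aldh1l2 and Psph in MYAZ were set by 1 line. Aldh1l2 was at 45.8 ± 1.84 CPM in MYAZ12.3i and at 16.3 ± 1.72 and 16.3 ± 0.348 CPM in MYAZ16.1e and MYAZ6.6g (± SD, n = 3), and Psph at 33.4 ± 0.940, 20.3 ± 1.38 and 19.1 ± 0.705 CPM in the same lines. The lower call of Aldh1l2 in Myc310 (-0.76, adjusted p = 0.0435) became -0.08 (adjusted p = 0.653) without MYAZ12.3i, and the call was lost in 13 of 21 alternatives. Among these was leaving out the 2 libraries numbered late, a control culture each of MYAZ16.1e and MYAZ12.3i (-0.66, adjusted p = 0.0655). Others were the replicate block (-0.76, adjusted p = 0.0539), no filter (0.0691), leaving out LM1, LM1-LM, LM2 or LM3-LM (0.0524 to 0.0548), and leaving out any 1 of the Myc310 cultures (0.0918 to 0.115). Mthfd2, higher there by 0.29 (adjusted p = 0.0184), missed the threshold without the first or the third of these cultures (adjusted p of 0.06 and 0.0691) and without MYAZ12.3i (0.0877) or MYAZ6.6g (0.06). Without MYAZ12.3i, Aldh1l2 was higher in LM (0.54, adjusted p = 8.62e-05) and LM-LM (0.64, adjusted p = 9.46e-06), against -0.13 and -0.03 with it, and Psph was higher in LM (0.30, adjusted p = 0.00469) and LM-LM (0.39, adjusted p = 0.000423). The higher call of Gldc in LM (1.39, adjusted p = 0.00327) became 0.06 (adjusted p = 0.862) without LM3, the line with 86 to 112 counts per library. In LM, Mthfd2 (0.22, adjusted p = 0.00924) missed the threshold without LM2, LM3, MYAZ12.3i or MYAZ6.6g (adjusted p of 0.0562 to 0.138), and Phgdh and Shmt1 did so without MYAZ6.6g (0.1 and 0.0816). In LM-LM, Mthfd2 did so without MYAZ12.3i (0.0523) and Phgdh without MYAZ6.6g (0.0514). The LM-LM call of Gldc (0.99, adjusted p = 0.0317) became 0.57 (adjusted p = 0.277) without LM2-LM. It was also lost without MYAZ16.1e (0.0892), MYAZ6.6g (0.0999) or the 2 libraries numbered late (0.0505).

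The MYAZ12.3i-NDI1 line was compared with MYAZ12.3i over 12841 genes, of which 8.14% were higher and 9.27% lower. Among the 10 genes, Mthfd2 was higher, and Aldh1l2 and Mthfd1 were lower. Mthfd2 was at 92.5, 86.7 and 85.6 CPM in MYAZ12.3i and at 122, 117 and 116 CPM with NDI1 (log2 fold change 0.42 ± 0.04, adjusted p = 8.63e-06 in edgeR). Aldh1l2 was at 43.8, 46.1 and 47.4 CPM and at 29.9, 34.3 and 29.3 CPM (-0.55 ± 0.06, adjusted p = 3.56e-05). These 2 mitochondrial enzymes, which rose together on deprivation, thus went opposite ways, with no overlap between the cultures of the lines. Mthfd1 was lower by a small amount (-0.09 ± 0.03, adjusted p = 0.0413) and lost the call when any 1 of the 6 libraries was left out (adjusted p of 0.0514 to 0.158). Shmt1 was at 76.8, 67.8 and 64.5 CPM and at 77.6, 77.5 and 77.7 CPM, and missed the threshold (0.16, adjusted p = 0.0523). It passed in 5 of 13 alternatives (no filter, 10 counts in every library, the replicate block, all 33 control libraries, and without the first MYAZ12.3i culture, with adjusted p of 0.00421 to 0.0459). The labels name no vector control, and a line and its derivative with 3 cultures each cannot separate NDI1 from other differences between them.

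Genes with the most similar pattern were ranked by Pearson's r of mean log2 CPM over the 15 groups of line and medium, among 8963 genes, as a description. Of these groups 4 are deprived, and the control and deprived groups of 4 lines share the line. The nearest gene was Asns for Psph (r = 0.993), Gars for Mthfd2 (0.996), Aldh18a1 for Shmt2 (0.994), Tbpl1 for Mthfd1l (0.988), Psph for Aldh1l2 (0.992), Shmt2 for Phgdh (0.978), Napa for Psat1 (0.980), Phb for Shmt1 (0.985) and 2610318N02Rik for Mthfd1 (0.970). For Gldc no gene exceeded 0.86. Over the 11 control groups alone the same r was 0.82 for Asns and Psph, 0.82 for Gars and Mthfd2 and 0.97 for Phb and Shmt1. Between the members, Mthfd2 and Psph had an r of 0.97 over the 15 groups and -0.10 over the 11 control groups, whereas Aldh1l2 and Psph kept 0.83.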

How the data were processed

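Polyadenylated RNA was sequenced from 45 cultures. The authors deposited 1 table of read counts per gene, made, per the labels, with STAR and RSEM on GRCm38, with R 4.2.2 and DESeq2 1.38.3 also named; the strand setting is not given in the sources used here. Depth was 19517859 to 29019988 counts per library, and Gldc, with 7 to 30 counts in the 24 libraries of the deprivation fit, is measured there with a large counting error. Samples were grouped by line and medium from the labels. Counts were tested with edgeR 4.0.16 (R 4.3.3) by the quasi-likelihood test after TMM scaling and filterByExpr, with Benjamini-Hochberg adjustment over all genes tested and a threshold of 0.05; the pipeline was tested on simulated data. Deprivation was fitted over 24 libraries (8 groups), subtypes over 30 control libraries and NDI1 over 6. Intervals of 95% are 1.96 standard errors. Values were named for all 10 members, for list genes past the threshold in all 4 lines or differing between lines, and for the genes most like each member. The members and lists were chosen with earlier results of these data known. Alternatives were RLE and upper-quartile scaling, other count filters, DESeq2 1.42.0, limma 3.58.1 voom, thinning to equal depth, a replicate block, counts summed per line, and leaving out libraries or lines. Replicate numbers did not pair the cultures: residuals of same-numbered cultures in the 2 media correlated at -0.39 to 0.30. No 2 libraries were identical. Some list genes are counted but not reported here by name.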

Additional observations from a re-analysis of the deposited data

Results flagged for a closer look

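The response to deprivation differed from that of MYAZ16.1e, by a test of the difference itself in edgeR, in 22 of the 30 comparisons of 10 genes in 3 lines, which share the cultures of MYAZ16.1e. Such differences were common: of all 13400 genes, 19.8%, 26.9% and 28.4% had a higher and 20.4%, 25.3% and 26.4% a lower response in Myc310, LM1 and LM1-LM. The difference in log2 fold change is given for Myc310, LM1 and LM1-LM in this order. Psph differed by 0.31, 0.39 and 0.41, Shmt2 by 0.14, 0.37 and 0.34, and Mthfd2 by 0.56, 0.75 and 0.65. Mthfd1l differed by 0.16, 0.26 and 0.26, and Aldh1l2 by 0.44, 0.65 and 0.52. Shmt1 differed by -0.45, -0.64 and -0.71, and Mthfd1 by -0.23, -0.19 and -0.22. Psat1 differed in Myc310, by -0.12. Line and subtype cannot be told apart in these comparisons.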

How the results depend on the processing

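The number of genes called was 9 in each line for deprivation and 8, 7 and 7 for the response in Myc310, LM1 and LM1-LM under every alternative run, the replicate block included. With the replicate block, calls numbered 6 (Aldh1l2 lost), 8 and 8 for the subtypes (6801, 8244 and 8528 of all genes). Calls for NDI1 numbered 4 (2245 of all genes), and the log2 fold change of Gldc for NDI1 was -0.0307. Subtype calls depended on how cultures of a line were treated. Counts summed per line gave 1, 4 and 4 calls in Myc310, LM and LM-LM, with Myc310 then 1 sample without a replicate (1429, 3788 and 4226 of all genes, against 7022, 8385 and 8661), and voom with a random effect of line gave 5, 5 and 6 (2819, 4759 and 5054 of all genes). With voom, Mthfd2 and Aldh1l2 lost their calls in Myc310 (adjusted p of 0.133 and 0.272), Phgdh, Mthfd2 and Gldc in LM (0.129, 0.0866 and 0.291), and Phgdh and Gldc in LM-LM (0.104 and 0.365). Without MYAZ6.6g LM had 5 calls (7849 of 13695 among all genes), and NDI1 had 5 over all 33 control libraries (2575 of 13899 among all genes). All-gene calls for NDI1 fell from 2236 to 1475, 1480 and 1243 without MYAZ12.3i culture 1, 2 or 3.

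Directions turned mostly between values that passed no threshold. For the response, upper-quartile scaling gave -0.0198 for Phgdh and -0.051 for Psat1 in LM1 and -0.0641 for Psat1 in LM1-LM, no filter gave 0.0024 for Phgdh in LM1-LM, and thinning gave 0.14 for Gldc in LM1-LM. Psph in LM was -0.0072 with RLE, -0.0094 with upper-quartile scaling, -0.0169 with 10 counts in every library, -0.0075 in DESeq2, and -0.0233, -0.11, -0.14 and -0.0153 without LM1, MYAZ16.1e, MYAZ6.6g and Myc310. Psph in LM-LM was -0.0715, -0.0169 and -0.0551 without LM2-LM, MYAZ16.1e and MYAZ6.6g. Aldh1l2 was 0.0036 in LM and 0.10 in LM-LM with voom, and in LM-LM 0.0306 without LM1-LM, 0.0418 without LM3-LM and 0.0628 without the 2 libraries numbered late. Without MYAZ12.3i, Aldh1l2 was 0.54 in LM and 0.64 in LM-LM, both called, and Psph and Gldc were 0.24 and 0.0252 in Myc310. The cause was not tested.

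With 1 library left out at a time, Gldc ranged from -0.14 to 0.34 for deprivation in MYAZ16.1e and from -0.33 to 0.35 in LM1-LM. The response of Phgdh ranged from -0.0535 to 0.0138 in Myc310 and -0.0179 to 0.0114 in LM1-LM, that of Psat1 from -0.0042 to 0.0372 and of Gldc from -0.45 to 0.23 in LM1-LM. For subtypes, Gldc ranged from -0.31 to 0.0658 in Myc310 and Psph from -0.0073 to 0.0125 in LM. For NDI1, Phgdh ranged from -0.0501 to 0.0347, Psph from -0.0647 to 0.0075 and Gldc from -0.39 to 0.38. Calls for NDI1 then numbered 2 to 3 for the members and 1243 to 2209 for all genes.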
